A study of Mus musculus with 9 samples.

Results

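The hedgehog pathway and its Gli transcription factors were followed through the development of the mouse olfactory bulb by the probe sets of 8 genes: Gli1, Gli2, Gli3, Ptch1, Smo, Sufu, Hhip and Gas1. A probe set is the group of short oligonucleotides by which an Affymetrix array reads a transcript. The members were all probe sets whose single gene symbol in the platform annotation was one of these names, which gave 22 of the 45101 probe sets on the array, for 8 of 18194 genes named singly. Bulbs came from CD1 mice, an outbred stock, at E11, E12, E13, E14, E15, E16, E17 and E18 (embryonic days) and at P0 (the day of birth). At each age 1 animal gave the RNA for 1 array, after 2 rounds of amplification, and no animal carried a mutation or received a treatment, as far as the labels say. No age was replicated. The error given with a slope is a moderated standard error from limma. It draws the scatter of the 9 arrays about the fitted line towards that of the other probe sets or genes tested. For a difference between 2 genes, the error is the ordinary standard error of the line, from the 9 arrays alone. All levels are the authors' log2 values from GCRMA, which subtracts a background estimated from the base content of each probe and puts the arrays on a common scale.

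Sonic hedgehog, the secreted protein encoded by Shh, binds the receptor Patched1 (Ptch1), which otherwise keeps the membrane protein Smoothened (Smo) silent. Smoothened acts through the primary cilium on the Gli zinc finger factors, of which Gli2 is the main activator and Gli3 is mostly cut to a repressor when no signal arrives, while Gli1, Ptch1 and Hhip are themselves switched on by the pathway and serve as its usual readouts. In the forebrain, Sonic hedgehog patterns ventral tissue early and later acts on the progenitors of the postnatal ventricular wall, from which bulb interneurons arise.

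The filter, a level of log2 5 reached on 2 arrays or more, was passed by 10 of the 22. These 10 covered 6 of the 8 genes (Gas1, Smo, Ptch1, Sufu, Gli2 and Gli3), while no probe set of Gli1 or Hhip passed it. A straight line on age (in days, P0 counted as day 19) was fitted to each with limma, and p-values were adjusted by Benjamini-Hochberg over the 21724 probe sets tested. At an adjusted p of 0.05, 8 of the 10 fell with age, 1 rose (Ptch1) and 1 did not pass (Sufu). Over all tested probe sets, 23.7% fell and 20.7% rose. The median slope of the 10 was -0.27 log2 units per day, against -0.011 over all tested probe sets. Probe sets of 1 gene share their target and are not independent, so the 8 that fell stand for 4 genes: Gli2, Gli3, Gas1 and Smo. Over the same ages all 9 tested genes of a cell cycle list fell as well, with a log2 summed level of 13.31 at P0 and 15.59 at E11, and the part of this in the falls of the hedgehog genes was not tested. In whole tissue, fewer cells of a type and less RNA per cell cannot be told apart.

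Promoter sequences are shown for the Gli factors that fell and for Ptch1, the gene that rose and a known target of Gli proteins. The windows are the 250 bases before the transcript start, from RefSeq on GRCm38.p6, read 5′ to 3′ on the gene's strand, and 7 of the 8 members matched an entry. Capitals mark CCACCC or its reverse complement GGGTGG, the core of the longer motif GACCACCCA that Gli proteins bind. The core stands 205 and 192 bases before the start of Gli2 and 170 before that of Gli3, and is not among the letters of the Ptch1 window. For Gli2 and Ptch1 the start used lies inside the annotated span of the gene, so that other starts exist upstream.
Gli2, chr1:119053620-119053869, minus strand: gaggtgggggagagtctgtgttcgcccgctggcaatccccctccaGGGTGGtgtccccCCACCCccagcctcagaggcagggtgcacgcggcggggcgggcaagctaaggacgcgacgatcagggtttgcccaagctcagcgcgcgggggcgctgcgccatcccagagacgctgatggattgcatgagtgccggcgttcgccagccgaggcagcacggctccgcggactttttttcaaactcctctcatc
Gli3, chr13:15463473-15463722, plus strand: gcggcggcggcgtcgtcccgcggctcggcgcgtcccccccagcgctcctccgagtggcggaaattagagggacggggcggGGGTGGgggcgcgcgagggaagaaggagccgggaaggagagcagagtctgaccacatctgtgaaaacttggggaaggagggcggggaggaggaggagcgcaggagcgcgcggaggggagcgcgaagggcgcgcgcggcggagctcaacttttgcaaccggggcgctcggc
Ptch1, chr13:63565736-63565985, minus strand: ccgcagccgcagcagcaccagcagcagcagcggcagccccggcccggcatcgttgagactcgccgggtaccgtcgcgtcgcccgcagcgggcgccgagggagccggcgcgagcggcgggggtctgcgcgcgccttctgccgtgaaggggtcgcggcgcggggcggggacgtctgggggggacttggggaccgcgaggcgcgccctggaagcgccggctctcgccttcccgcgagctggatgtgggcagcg
Both strands were searched. The core was found in 4 of the 7 member windows (also Smo, at 162 bases, and Hhip, at 158), against 28.1% of 32851 promoters of the same length, and GACCACCCA, which contains it, was found in 0 of the 7, against 0.225% of all. The Ptch1 window had 78.4% G or C and the Gli3 window 72.8%, against a median of 52.4% over all promoters. The member with the lowest share was Sufu (54%).

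Gli3 fell most steeply. Probe set 1455154_at read 11.76 at E11, 11.80 at E12, 10.73 at E13, 9.97 at E14, 9.27 at E15, 8.97 at E16, 8.41 at E17, 8.09 at E18 and 7.998 at P0. The 2 highest readings were the 2 earliest ages, and from E13 on each array read lower than the one before. The slope was -0.53 ± 0.039 log2 units a day, with its moderated standard error (adjusted p = 1.14e-05, limma), and the level at P0 was 13.6-fold lower than at E11. Of all probe sets tested, 0.267% had a steeper downward slope. A second Gli3 probe set, 1456067_at, read 10.24 at E11, 11.20 at E12, 8.36 at E13, 8.61 at E14, 7.14 at E15, 7.09 at E16, 7.50 at E17, 7.15 at E18 and 7.23 at P0. It was highest at E12 and lay within 7.09 to 7.50 on every array from E15 on. The slope of this probe set was -0.46 ± 0.097 (adjusted p = 0.00381), which an exact rank test did not call (adjusted p = 0.0949), nor did the fit without E11 and E12 (0.0704). The remaining one, 1450525_at, stayed between 2.12 and 2.18 on all arrays.

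Gli2 fell by less. Probe set 1459211_at read 10.01 at E11, 10.05 at E12, 9.58 at E13, 9.03 at E14, 8.65 at E15, 8.93 at E16, 8.45 at E17, 7.88 at E18 and 7.67 at P0. The decline was close to a straight line, with a scatter of 0.21 log2 units around it (residual standard deviation). The slope was -0.30 ± 0.028 (adjusted p = 3.80e-05), and P0 was 5.07-fold lower than E11. The other Gli2 probe set, 1446086_s_at, was designed on the same source sequence and had a slope of -0.25 ± 0.038 log2 units a day (adjusted p = 0.000613), with 5.63 at P0 and 7.33 at E11. The log2 difference Gli2 minus Gli3, taken within each array between the probe set of highest mean of each gene, was -0.33 at P0 and -1.75 at E11. Probe sets differ in how well they bind, so the size of such a difference is not read, but its change with age is, for the probe sets paired. It changed by 0.23 ± 0.042 log2 units per day (exact permutation test over the 9 ages, two-sided, p = 0.00148, adjusted p = 0.00222 over 6 planned pairs). Over the whole course, Gli3 thus fell faster than Gli2. The change was not steady: the difference was -1.75 at E12 too, reached 0.040 at E17 and went back to -0.20 at E18. With E11 and E12 left out the difference changed by 0.16 per day and no longer passed (adjusted p = 0.0524, exact permutation test). The second Gli3 probe set, 1456067_at, was not paired, and it read 7.14 at E15 and 7.23 at P0.

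**Figure D1:**
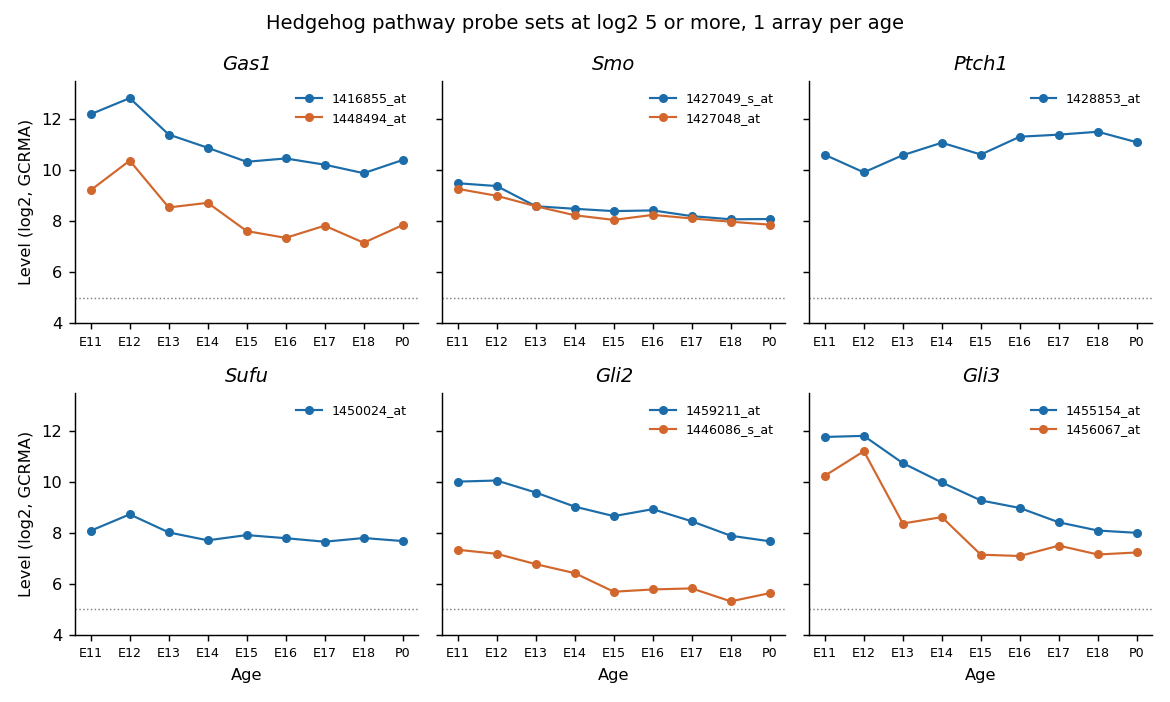
Log2 level (vertical axis) by age (horizontal axis) of the 10 hedgehog pathway probe sets that passed the filter, with 1 point per array and 1 panel per gene; the dotted line marks log2 5. Gli3 probe set 1455154_at ends at 7.998 and starts at 11.76, while Ptch1 ends at 11.10 and starts at 10.60.

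Gli1 gave no reading from which a course could be drawn. Its 1 probe set, 1449058_at, lay between 2.15 and 2.22 on 8 of the arrays and at 2.56 at E17, all of them far under log2 5. A reading at this level sets no limit on how much Gli1 RNA was present, since a probe set that binds its target poorly reads the same way. The same holds for probe sets of other members: 2 of the 3 Ptch1 probe sets, 2 of the 3 Sufu probe sets, 1 of the 3 Smo probe sets and 1 of the 3 Gli3 probe sets also lay under log2 4 on all arrays, although another probe set of the same gene read well above log2 5.

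Ptch1, the receptor and a target gene of the pathway, was the 1 tested member that rose. Probe set 1428853_at read 10.60 at E11, 9.92 at E12, 10.59 at E13, 11.08 at E14, 10.61 at E15, 11.32 at E16, 11.40 at E17, 11.51 at E18 and 11.10 at P0. The 4 highest readings were the 4 from E16 on, and the lowest was at E12. The slope was 0.14 ± 0.040 (adjusted p = 0.0146, limma). With sign kept, it was higher than that of 84.5% of the probe sets tested, all steeper falls being counted among these. P0 was 1.41-fold higher than E11, a rise of 0.49 log2 units set against a scatter of 0.35 around the line. The call held without each array in turn (highest adjusted p = 0.0456, without E18) and with embryo sex in the fit (0.0154), but not with both E11 and E12 left out (slope 0.11, adjusted p = 0.117). The rise rests on this probe set, as 1450824_at stayed between 1.91 and 1.95 and 1439663_at between 2.67 and 2.83 apart from 3.75 at E13.

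Smo, the membrane protein that Ptch1 holds in check, fell. Probe set 1427049_s_at read 9.49 at E11, 9.38 at E12, 8.59 at E13, 8.48 at E14, 8.39 at E15, 8.42 at E16, 8.20 at E17, 8.07 at E18 and 8.08 at P0, and 1427048_at, designed on the same source sequence, ran alongside it between 9.27 at E11 and 7.86 at P0. Most of the fall lay before E15, where 1427049_s_at had lost 1.09 of the 1.40 log2 units between E11 and P0. The slopes were -0.17 ± 0.030 (adjusted p = 0.00136) and -0.16 ± 0.029 (adjusted p = 0.00152), and 1427048_at was not called once E11 and E12 were left out (0.0667). Another probe set, 1442215_at, read between 3.08 and 3.74. The log2 difference Ptch1 minus Smo within each array was 3.01 at P0 and 1.12 at E11 and changed by 0.32 ± 0.062 per day (exact permutation test, two-sided, p = 0.00113, adjusted p = 0.00222). As Ptch1 rose and Smo fell on these same arrays, this change restates the slopes of the genes and is not separate support.

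Gas1, a membrane-anchored coreceptor that helps Sonic hedgehog bind Ptch1, fell after E12. Probe set 1416855_at read 12.20 at E11, 12.83 at E12, 11.40 at E13, 10.88 at E14, 10.33 at E15, 10.46 at E16, 10.22 at E17, 9.88 at E18 and 10.40 at P0. The peak at E12 lay 0.93 log2 units above the fitted line, and the P0 array read 0.52 above E18. The slope was -0.31 ± 0.058 (adjusted p = 0.00190), and P0 was 3.47-fold lower than E11. Probe set 1448494_at had the same shape, with 10.38 at E12, 7.15 at E18 and 7.84 at P0 (slope -0.30 ± 0.073, adjusted p = 0.00806), but was called neither in an exact rank test (adjusted p = 0.0643) nor without E11 and E12 (0.114). The remaining one, 1456322_at, read 4.89 at E12 and between 4.53 and 4.56 elsewhere. The log2 difference Gas1 minus Ptch1 was -0.70 at P0 and 1.59 at E11 and changed by -0.46 ± 0.10 per day (exact permutation test, two-sided, p = 0.00206, adjusted p = 0.00247). It was highest at E12, at 2.91, and lowest at E18, at -1.63. Its change, too, restates the slopes of the genes and is not separate support for them.

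**Figure D2:**
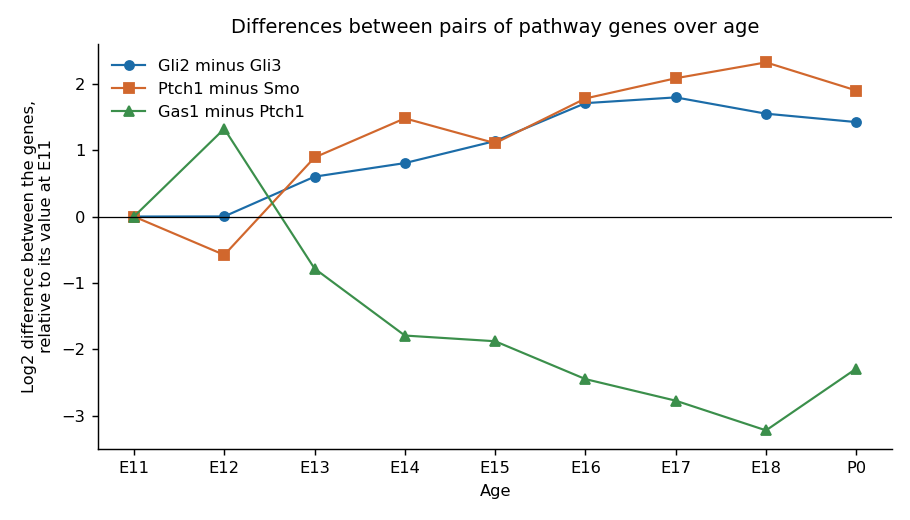
Log2 difference between 2 genes on the same array (vertical axis, relative to its value at E11) by age (horizontal axis), for Gli2 minus Gli3, Ptch1 minus Smo and Gas1 minus Ptch1, each by its probe set of highest mean and with 1 point per array. Gli2 minus Gli3 ends 1.42 and Ptch1 minus Smo 1.90 above the E11 value. Gas1 minus Ptch1 ends 2.29 log2 units under it, after a high point at E12 and a low point at E18.

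Sufu, the cytoplasmic inhibitor that holds Gli proteins, had a slope of -0.084 ± 0.033 and did not pass (adjusted p = 0.0596). Probe set 1450024_at read 8.72 at E12 and between 7.65 and 8.08 on the other 8 arrays, and the level at P0 was 1.32-fold lower than at E11. It passed with each array centred on its median (slope -0.10, adjusted p = 0.0310), in an exact rank test (0.0487) and without the E14 array (0.0479), but not without E12 (slope -0.047, adjusted p = 0.140). The other Sufu probe sets, 1420848_at and 1431713_at, did not exceed 2.27.

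Hhip, a membrane protein that binds hedgehog ligands and is induced by them, stayed under log2 5 with all 4 probe sets. Of these, 1455277_at read 4.97 at E15, 2.92 at P0 and between 2.08 and 2.27 on the other 7 arrays, and 1437933_at read 3.26 at E15 and between 2.58 and 2.69 elsewhere. Both were highest on the E15 array, while 1438083_at (2.78 to 2.89) and 1421426_at (2.04 to 2.11) showed no such reading. With 1 animal at E15, a reading of that age and a reading of that animal cannot be told apart.

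**Figure D3:**
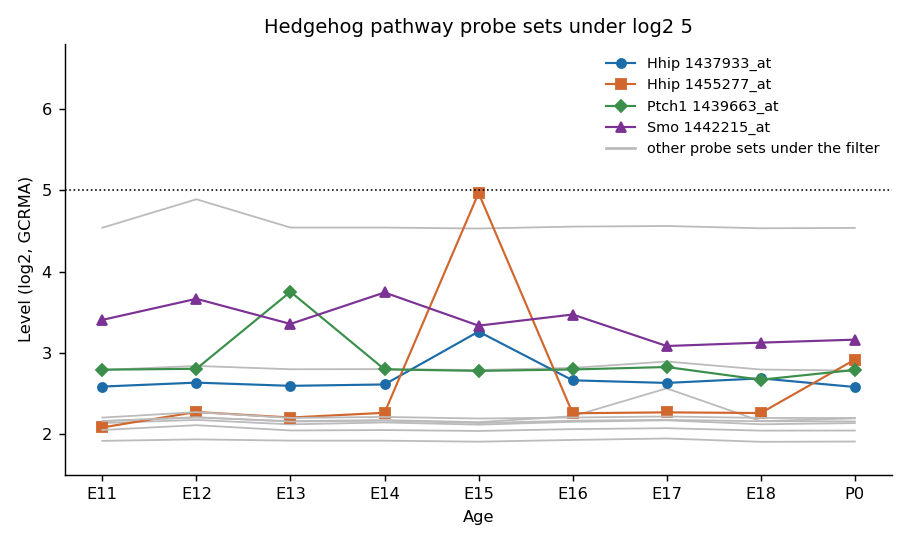
Log2 level (vertical axis) by age (horizontal axis) of the 12 member probe sets under the filter, with 1 point per array; the dotted line marks log2 5, and grey lines are the probe sets whose readings spanned less than the coloured ones. Hhip probe set 1455277_at stands out at E15 with 4.97, just under that line.

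All 8 probe sets that fell, which stand for 4 genes, lost more between E11 and E15 than between E15 and P0, and 72.2% of all falling probe sets did the same. From E11 to E12, 1 of the 10 read at least 1 log2 unit higher (Gas1 1448494_at), against 5.3% of all tested probe sets. In the step from E12 to E13, 4 of the 10 read at least 1 log2 unit lower (both of Gas1 and both of Gli3), against 3.3% of all tested probe sets, and from E14 to E15, 2 of these 4 did so again (1448494_at of Gas1 and 1456067_at of Gli3), against 2.2%. No step after E15 reached that size for any of the 10. None passed for curvature (a squared term for age added to the limma model, 0 of 10 at an adjusted p of 0.05, with 5 of 10 at an unadjusted p under 0.05, and 5.27% called over all tested probe sets). Over all tested probe sets, 4.82% passed with the turn of the fitted curve between day 12 and day 18. Without the E11 array, 2 of the 10 passed, against 1.49% of all probe sets tested in that fit: 1416855_at of Gas1, with a lowest point at day 17.1 (adjusted p = 0.0325, limma), and 1455154_at of Gli3, whose curve flattened towards day 19.6 (adjusted p = 0.0298).

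Across the 9 arrays, the 8 probe sets that fell correlated between genes at 0.81 to 0.97 (Pearson correlation, a description over arrays that share age). Gas1 1416855_at correlated with Gli3 1456067_at at 0.97 and with Gli2 1459211_at at 0.89, and Gli3 1455154_at with Gli2 1459211_at at 0.97. Ptch1 was negatively correlated with each of the other 9, between -0.71 for Smo 1427048_at and -0.89 for Sufu. On the E12 array, both Gas1 probe sets, Sufu, both Gli3 probe sets and Gli2 1459211_at stood highest. For Gli3 1455154_at and Gli2 1459211_at, E12 lay only 0.04 log2 units above E11. The E12 array was also the one with the lowest Ptch1.

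**Figure D4:**
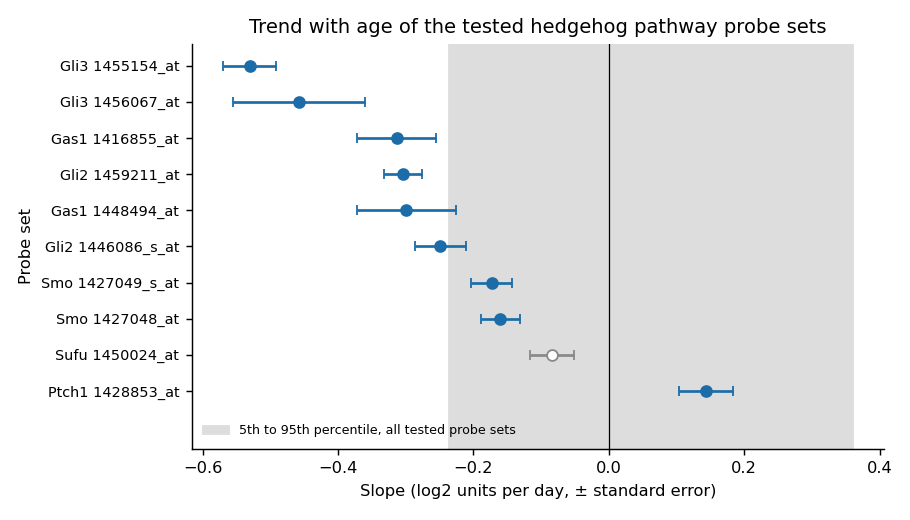
Slope of the log2 level on age in log2 units per day (horizontal axis, points with standard error bars) for the 10 tested probe sets (vertical axis); filled points passed at an adjusted p of 0.05, the open point did not, and the grey band holds the 5th to 95th percentile of the slopes of all tested probe sets. Both Gli3, both Gas1 and both Gli2 probe sets lie left of the band, and Ptch1 is the 1 point right of 0.

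Outside the 8 members, the ligand rose while the coreceptors fell. Shh read 5.07 at E11, 5.30 at E12, 5.23 at E13, 6.03 at E14, 6.01 at E15, 6.03 at E16, 6.38 at E17, 6.55 at E18 and 6.65 at P0, near the lower end of what was tested. The 3 lowest readings were the 3 earliest ages. Its slope was 0.21 ± 0.030 (adjusted p = 0.000439 over the 10864 genes tested, each by its probe set of highest mean), and P0 was 2.97-fold higher than E11. The other ligand genes, Ihh and Dhh, did not exceed 1.89 and 3.09. Cdon and Boc, which like Gas1 bind the ligand together with Ptch1, had slopes of -0.37 ± 0.035 (adjusted p = 3.96e-05) and -0.48 ± 0.042 (adjusted p = 2.55e-05). Cdon read 9.08 at P0 and 11.37 at E11, and Boc read 5.90 at P0 and 9.07 at E11.

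**Figure D5:**
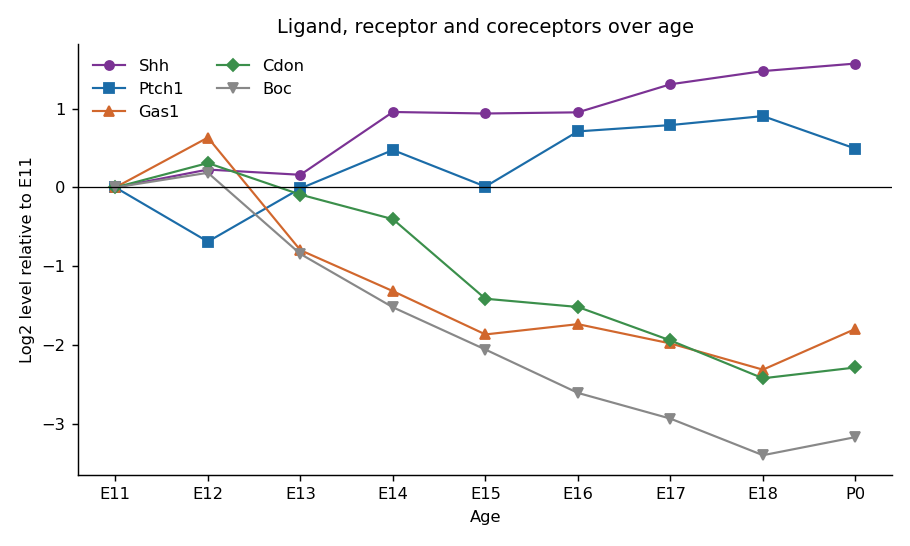
Log2 level relative to E11 (vertical axis) by age (horizontal axis) of the ligand Shh, the receptor Ptch1 and the coreceptors Gas1, Cdon and Boc, with 1 point per array. Shh and Ptch1 end 1.57 and 0.49 log2 units above E11, while the coreceptors end below it (Boc fell by 3.17).

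Among 55 further genes of the pathway, 40 were tested, of which 7 rose, 12 fell and 21 did not pass, against 25.2% risen and 21.9% fallen over all genes. With each array centred on its median, 4 of these genes rose and 17 fell. Over all tested probe sets, 3897 then rose and 6459 fell, against 4487 and 5143 without centring. Uncentred, the median change of the 40 genes over the course was -0.40 log2 units, against 0.016 over all genes. Of the genes for ligands, their release and uptake, 1 of 5 tested rose (Shh) and 2 fell: Scube1 (-0.34 ± 0.073) and Scube2 (-0.17 ± 0.060), secreted proteins of a family that helps to release hedgehog ligands from the cell. The Scube2 call ended without 6 of the arrays (E11, E12, E13, E14, E17 or E18, highest adjusted p = 0.122) and Scube1 was called neither in an exact rank test (0.0611) nor without E11 and E12 (0.120). Of 24 tested genes of the signal relay and the cilium, 4 rose, 4 fell and 16 did not pass, and the median change of this list was 0.0061. Stk36, the kinase related to fly Fused, fell (-0.23 ± 0.028), as did Efcab7, a ciliary anchor of the EvC complex (-0.18 ± 0.044), and Gpr161, a ciliary receptor that keeps protein kinase A active against the pathway (-0.092 ± 0.024). The catalytic kinase A subunit Prkacb rose (0.16 ± 0.039). The Efcab7 call ended without E11 (adjusted p = 0.0518), and that of Gpr161 without P0 (0.0650). Without E11 and E12, the calls of Efcab7 (0.179) and Prkacb (0.298) ended too.

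Of 15 genes known as hedgehog targets in one tissue or another, 9 were tested, of which 2 rose, 4 fell and 3 did not pass. Ccnd1, the cyclin of the early cell cycle, fell (-0.41 ± 0.051) and was 8.81-fold lower at P0 than at E11. The secreted Wnt modulator Sfrp1 (-0.33 ± 0.036) and the mitotic factor Foxm1 (-0.36 ± 0.076) fell as well, though Foxm1 was not called without E11 and E12 (adjusted p = 0.126). Foxm1 read under log2 5 from E14 on, and its slope was -0.26 with values under log2 5 set to 5. Foxc2, a forkhead factor of mesenchyme, rose (0.51 ± 0.092). It read 7.57 at P0 and 4.65 at E11, and lay under log2 5 on every array from E11 to E14. With values under log2 5 set to 5, the Foxc2 slope was 0.40. The ventral forebrain and floor plate factors Nkx2-1, Nkx2-2, Nkx6-1, Nkx6-2 and Foxa2 all lay under the filter on this array.

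Other sets of cell type genes moved over these ages too, and their part in the courses of the hedgehog genes was not tested either. Beside the cell cycle genes, 3 of 4 red cell genes fell, the embryonic globins Hbb-y, Hbb-bh1 and Hba-x. The fourth, Alas2, did not pass (slope -0.10 ± 0.076, adjusted p = 0.306, limma), with 6.94 at P0 and 9.46 at E11. The log2 summed level of this list was 7.17 at P0, mostly from Alas2, and 16.23 at E11, mostly from Hbb-y (15.52). Of 10 radial glia and progenitor genes 8 fell and 2 rose (Fabp7 and Slc1a3), with a median level of 10.31 at P0 and 11.45 at E11 and summed levels of 15.87 at P0 and 15.92 at E11, in which Fabp7 weighs most (15.34 at P0, 14.46 at E11). Of 10 tested genes of meninges and mesenchyme, where Foxc2 is also known, 8 rose and 0 fell (14.34 at P0, 12.63 at E11, lowest at E13 with 11.57), Twist1 being under the filter. All 6 tested astrocyte genes rose (13.19 at P0, 8.12 at E11), Gfap being under the filter. So did all 7 of the GABAergic interneuron lineage (14.20 at P0, 12.54 at E11, lowest at E12 with 11.65). All 6 tested genes of olfactory ensheathing cells rose, with a median level of 9.42 at P0 and 4.19 at E11. This list shares Fabp7, which makes up most of its summed level (15.54 at P0, 14.46 at E11), with the radial glia, S100b with the astrocytes and Sox10 with the oligodendrocyte lineage. All 5 tested genes of microglia and macrophages rose (11.30 at P0, 8.36 at E11). Of the oligodendrocyte lineage 4 of 5 rose (11.81 at P0, 9.17 at E11, lowest at E12 with 7.58), and of endothelium and mural cells 4 of 6 (12.29 at P0, 10.41 at E11). Of 3 tested cartilage genes 2 fell, Sox9 and Col2a1, and Col9a1 did not pass (summed level 8.93 at P0, 10.36 at E11). Acan and Matn1 were under the filter, and Acan read higher at P0 (5.24) than at E11 (3.06). As a check of the labelled tissue, general neuronal genes read high at all ages, with 6 of 7 risen and 0 fallen (16.04 at P0, 14.80 at E11). Of the nasal epithelium and its sensory neurons 1 gene was tested, which rose (6.25 at P0, 2.65 at E11), while Omp and Cnga2 lay under the filter.

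For each tested member, the 3 genes of most similar course were looked up among 10864 genes (Pearson correlation over 9 arrays). Gli3 was most like Boc (0.997), Tead2 (0.996) and Ints11 (0.996), and Gas1 most like Bend3 (0.995), Sox21 (0.993) and 2810001G20Rik (0.992). The courses nearest to Gli2 were those of Mcm3ap (0.991), Cebpg (0.989) and Cdca4 (0.988), and nearest to Smo were Phka2 (0.991), Prr11 (0.986) and 2700099C18Rik (0.985). Ptch1 was nearest to Tsnax (0.971), Ttc30b (0.946) and Fbxo28 (0.943), and Sufu to Phc2 (0.969), Arid1a (0.965) and Prkd1 (0.957). With 9 points and a shared trend, such values are common: 958 genes correlated with Gli3 above 0.9 and 845 with Smo, but 52 with Ptch1 and 46 with Sufu.

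Facts of the arrays that touch these results were few. The median over all probe sets lay between 4.08 and 4.23. Xist read 13.42 to 13.98 at E11, E12, E15 and P0 and at most 2.89 at the other ages, so that 4 arrays read as female and 5 as male. With sex, taken from Xist, in the fit, none of the 10 member probe sets changed its call. The difference between the 3′ and 5′ control probe sets is a sign of RNA integrity. For actin it was 1.48 to 1.68 log2 units at E11 to E13 and 1.62 to 1.90 from E14 on. For Gapdh it was 1.55 to 1.77 at E11 to E13 and 1.87 to 2.12 from E14 on. Both thus partly followed age, and their part in the slopes was not tested.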

How the data were processed

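Olfactory bulb RNA of 9 CD1 mice, 1 per age, was measured on 1 Affymetrix mouse array each. The values deposited by the authors came from GCRMA, per the submitters' processing notes, and are taken as log2 from their range and that method. No version of GCRMA was given. The number of arrays limits precision. No scaling was added, and 64 control probe sets were left out.

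Probe sets at log2 5 or more on at least 2 arrays (21724) were fitted with limma 3.58.1 in R 4.3.3 (slope on age, moderated variance with a trend on level, two-sided, Benjamini-Hochberg, threshold 0.05). The fit left 7 residual degrees of freedom. Other pathway genes were fitted at gene level by their probe set of highest mean. Of 6 planned pairs of members, 3 had Gli1 or Hhip under the filter and are not read. The exact permutation tests can give no p below 6e-06. Folds compare P0 with E11.

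The members and lists were chosen with earlier results of these data known. All member probe sets are named, and of each pathway list the 4 largest slopes past the threshold. The fit was tested on simulated data. Alternatives covered the filter, the floor, scaling, the day of P0, sex, arrays left out, the variance model, rank correlation, 1 probe set per gene and probe sets matching several transcripts.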

Additional observations from a re-analysis of the deposited data

How the results depend on the processing

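No slope of a member probe set changed sign in 204 recomputations over 21 alternatives. Of these, 195 kept their side of the threshold, 6 lost a call (those of Ptch1, Gas1 1448494_at, Gli3 1456067_at and Smo 1427048_at, each without E11 and E12, and Gas1 1448494_at and Gli3 1456067_at by rank correlation) and 3 gained one (all Sufu). Without both E11 and E12, 0 member probe sets rose and 5 fell, over all probe sets 2300 rose and 2607 fell, 2 other pathway genes rose, and the slope of Gli2 minus Gli3 was 0.16. These fits have 7 arrays and a shorter course. With 1 probe set per gene, 2743 rose, 2382 fell and 4 member probe sets fell, since fewer were tested. Of the other pathway genes, 4 rose and 17 fell with median centring, which shifted the median of an array by up to 0.088 log2 units. Centring takes the same value from every probe set of an array, so it lowered all slopes alike (Shh from 0.206 to 0.188). By rank correlation, 4 of these genes and 3363 of all tested probe sets rose, and the cause was not tested. Without 1 array at a time, 8 to 9 member probe sets fell and 1 rose each time, 0 to 1 had a turn of curvature, 3502 to 4492 of all probe sets rose and 3883 to 5031 fell, and 5 to 6 other pathway genes rose and 10 to 14 fell. The slope differences then ran from 0.21 to 0.28 for Gli2 minus Gli3, 0.26 to 0.38 for Ptch1 minus Smo and -0.57 to -0.36 for Gas1 minus Ptch1. No paired analysis was possible because each age had 1 array. Readings under log2 5, among them all of Gli1 and Hhip, carry no usable course.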
